A study of Mus musculus with 16 samples.

Results

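Hif1a encodes the oxygen-regulated subunit of hypoxia-inducible factor 1 (HIF-1), and it is described here with 5 genes tied to it: its inhibitor Hif1an and the HIF-responsive genes Mxi1, Bhlhe40, Car9 and Narf. The 6 genes were chosen by name, with earlier results of these data known. Each was found in the deposited table through its Ensembl identifier. They are 6 of the 6288 genes in that table, and all 6 passed the filter on low values. Bulk RNA sequencing had been done on CD45+ mouse bone marrow cells enriched for the LSK fraction (lineage-negative, Kit-positive, Sca1-positive), the fraction in which blood stem cells and early progenitors are found. Cells of wild-type (WT) C57Bl/6J mice and of Tet2-deficient (Tet2-/-) mice were compared in 2 oxygen conditions, with 4 libraries in each of 4 groups. Tet2 encodes a dioxygenase that oxidizes 5-methylcytosine in DNA.

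Marrow of every mouse was collected at 3% oxygen (physioxia) inside a hypoxia chamber, and the enriched cells of each collection were then divided. In the WT physioxia and Tet2-deficient physioxia groups the cells stayed in the chamber until RNA extraction. In the WT air and Tet2-deficient air groups they were instead kept for 6 hours in room air at about 21% oxygen. How long the physioxia cells were held before extraction is not given in the sources used here. In the oxygen differences below, oxygen and time of holding therefore cannot be told apart. The mice were 3 to 4 months old and of both sexes. Every cell in the study, the air groups included, had therefore been taken from the animal at low oxygen. The labels name no Cre or promoter for the Tet2 allele, and whether a library came from 1 mouse or a pool is not given in the sources used here.

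HIF-1 is a pair of an alpha subunit and the constant partner ARNT. In the presence of oxygen, prolyl hydroxylases mark HIF-1α for destruction through the von Hippel-Lindau protein, and the asparaginyl hydroxylase FIH, the product of Hif1an, blocks its binding to the coactivators p300 and CBP. At low oxygen both steps slow, the protein accumulates and it binds the letters ACGTG or GCGTG near its target genes. Much of this control acts on the protein, which RNA sequencing does not measure. In bone marrow, HIF-1α is known for supporting the glycolytic metabolism and quiescence of stem cells.

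The DNA just upstream of the members' RefSeq start sites (build GRCm38.p6) is shown because the genes were put together for their ties to HIF, whose binding letters can be looked for there. RefSeq windows were matched for 5 of the 6 genes, with 7 start sites, and Bhlhe40 was not matched. The letters ACGTG and GCGTG, the core bound by HIF, were searched on both strands in the 250 bases before each start. Capitals mark each match, and CACGTG, an E-box that holds ACGTG on both strands, counts as 2 overlapping matches. Bases that the annotation places in an exon were left out, so Hif1an is shown with 246 bases. All 4 windows lie on the + strand and are written 5′ to 3′.

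Hif1a, chr12:73907617-73907866: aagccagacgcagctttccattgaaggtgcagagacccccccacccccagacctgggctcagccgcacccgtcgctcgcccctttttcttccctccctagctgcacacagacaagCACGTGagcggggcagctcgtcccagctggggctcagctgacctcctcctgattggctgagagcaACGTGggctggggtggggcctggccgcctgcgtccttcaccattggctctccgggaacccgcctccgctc
Hif1an, chr19:44562604-44562849: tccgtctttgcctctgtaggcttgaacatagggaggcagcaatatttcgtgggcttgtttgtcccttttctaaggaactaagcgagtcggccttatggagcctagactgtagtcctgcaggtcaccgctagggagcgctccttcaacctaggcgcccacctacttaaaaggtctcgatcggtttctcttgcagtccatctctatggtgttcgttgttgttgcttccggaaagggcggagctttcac
Mxi1, second start site, chr19:53329163-53329412: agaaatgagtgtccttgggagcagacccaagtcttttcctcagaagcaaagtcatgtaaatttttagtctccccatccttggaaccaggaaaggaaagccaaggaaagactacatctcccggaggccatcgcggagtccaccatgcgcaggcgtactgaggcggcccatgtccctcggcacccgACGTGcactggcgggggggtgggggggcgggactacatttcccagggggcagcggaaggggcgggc
Narf, chr11:121236986-121237235: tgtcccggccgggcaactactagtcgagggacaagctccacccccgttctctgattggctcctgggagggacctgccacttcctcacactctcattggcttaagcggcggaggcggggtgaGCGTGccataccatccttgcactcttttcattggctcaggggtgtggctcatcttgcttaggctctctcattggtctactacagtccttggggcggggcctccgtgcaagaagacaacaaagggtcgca

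The Hif1a window held 3 matches, 2 of them within the CACGTG that begins 135 bases before the start and the third 70 bases before it. The second Mxi1 start had 1 ACGTG at 66 bases before it, and Narf had 1 GCGTG at 129 bases before its start. The Hif1an window and that of the first Mxi1 start had none. With exonic bases left out 3 of the 7 windows held a match, and with them 5 did, the third Mxi1 start and Car9 having theirs in exonic bases. Of all 32851 RefSeq windows of this length, exonic bases included, 38.6% held ACGTG or GCGTG on either strand, 16.57% held ACGTG and 6.021% held CACGTG. A match is a run of letters and not a measured binding site.

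The deposited values, called normalized counts below, are reads of each gene scaled by a factor of its library. The libraries held 7.77 to 15.7 M reads in the table's genes, and the lowest read number of any member in any library was 236 (Mxi1). The targeted gene Tet2 lay at 650 to 993 normalized counts in the WT libraries in air against 506 to 626 in the Tet2-deficient ones, and at 592 to 812 against 447 to 530 in physioxia, so its transcript was lower but not absent. Which part of the gene the allele removes is not given in the sources used here. Of 10 LSK and stem cell markers, the table held Kit, Procr, Slamf1 and Hlf, all detected in every group. Their summed level was 2736 to 5428 in WT libraries and 6471 to 9268 in Tet2-deficient ones. Ptprc, which encodes CD45, and Ly6a, which encodes Sca1, are not analysed here. The sum of 15 erythroid markers was 35550 to 75729 in WT libraries and 115732 to 355279 in Tet2-deficient ones. Those of 8 monocyte and macrophage markers (41940 to 77040 against 24562 to 29474) and of 11 basophil and mast cell markers (60407 to 105633 against 18681 to 28393) lay the other way. Car2 was a large part of the erythroid sum. In air its mean was 24511 in WT (sums 35550 to 55398) and 93725 in Tet2-deficient libraries (sums 123028 to 355279). Lineage marker levels thus differed between genotypes, and in bulk samples fewer cells of a type cannot be told apart from less RNA per cell. The part of these marker differences in the results below was not tested.

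Between genotypes, Hif1a, Mxi1, Bhlhe40 and Car9 were lower and Narf higher in Tet2-deficient cells in both oxygen conditions, and Hif1an was higher in physioxia. In air 1 member was called higher and 4 lower by limma (adjusted p under 0.05), where 79.5% of the 6110 genes tested were called, 42.1% higher and 37.4% lower. After quantile normalization that balance turned, with 1984 genes called higher and 2303 lower in air in place of 2575 and 2283, and in physioxia 1909 and 1938 in place of 2192 and 2051. In physioxia 2 were called higher and 4 lower, against 69.4% of genes, 35.9% higher and 33.6% lower. In air the libraries of 5 of the 6 members did not overlap between genotypes, against 70.6% of genes, and in physioxia those of 6 of 6 against 57.6%. For each non-overlapping member the exact two-sided permutation p was 0.0286, the smallest possible, which any non-overlap of 4 against 4 libraries gives. The median log2 difference of the 6 was −0.59 in air and −0.61 in physioxia, beside 0.24 and 0.06 over all genes tested. How the genes of the table were chosen is not stated, and 97.93% of them had a DESeq2 p under 0.05 in at least 1 pairwise comparison, so these shares do not describe the transcriptome. All 6 members are among them. If genes were kept for such differences, the members' own calls and permutation p-values carry the same selection. The members were also chosen with earlier results of these data known, so their calls, non-overlap and median are descriptions and not independent support. When the adjustment also counted the annotated genes that the table lacks, all as unchanged, Car9 was not called in air or physioxia (limma adjusted p = 0.229 and adjusted p = 0.0643) and Hif1an was not called in physioxia (limma adjusted p = 0.103).

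Hif1a RNA was lower in Tet2-deficient cells, at close to the same size in both oxygen conditions. In WT air the libraries held 3797, 3661, 3816 and 3558 normalized counts of Hif1a (replicates 1 to 4). In Tet2-deficient air they held 1820, 2066, 1659 and 2027. The lowest WT air library stood well above the highest Tet2-deficient one, and the means were 3708 ± 121 and 1893 ± 190 (SD, n = 4 each, as for all such values). The log2 difference, Tet2-deficient minus WT, was −0.97 ± 0.16 (SE; limma adjusted p = 0.000168), or 0.511 times the WT level. In physioxia the WT libraries held 3078, 2139, 3994 and 3908, and the Tet2-deficient ones held 2032, 1539, 1750 and 1967. WT physioxia replicate 2 lay far below the other 3 WT libraries and just above the highest Tet2-deficient one. That library also had the lowest LSK marker sum (2736) and the highest erythroid sum (75729) of the WT libraries, and its 10 most abundant genes took the largest share of reads (20.3%). Its monocyte and macrophage (77040), basophil and mast cell (105633) and T and NK cell (44398) sums were the highest of the WT libraries as well. The listed T and NK genes were uneven in level, Trac having a mean of 25.9 in WT physioxia. The Hif1a difference in physioxia was −0.81 ± 0.16 (limma adjusted p = 0.00071) with WT physioxia replicate 2 and −1.005 without it (limma adjusted p = 1.24e-05). The gene (ENSMUSG00000021109, GRCm38 chr12:73901375-73947530, + strand) shares 330 exonic bases with the antisense gene Gm15283 and 148 with Gm49321, and whether the reads were counted by strand is not given in the sources used here.

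Of the other HIF alpha and beta subunits, the table held Hif3a, whose product can act as a dominant-negative partner in the HIF system. Hif3a was higher in Tet2-deficient cells, by a log2 difference of 1.54 ± 0.30 in air and 2.05 ± 0.30 in physioxia (limma adjusted p = 0.000583 and adjusted p = 5.6e-05), from 26.7 ± 2.78 normalized counts in WT air. The 2 measured alpha subunits thus differed in opposite directions between genotypes, and Epas1, Arnt and Arnt2 are not analysed here. Of 9 listed coactivators and partners, the table held Ep300 (p300) and Cited4, a binder of p300 and CBP. Ep300 differed by −0.55 ± 0.25 in air (limma adjusted p = 0.0553) and by 0.19 ± 0.25 in physioxia (limma adjusted p = 0.509). Cited4 stood at 24.9 ± 5.86 in WT air against 732 ± 728 in Tet2-deficient air, a log2 difference of 4.06 ± 0.75 (limma adjusted p = 0.000392), and it was also higher in WT physioxia than in WT air (2.67 ± 0.75, limma adjusted p = 0.0473). It was not called between genotypes in physioxia (1.15 ± 0.75, limma adjusted p = 0.179).

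**Figure D1:**
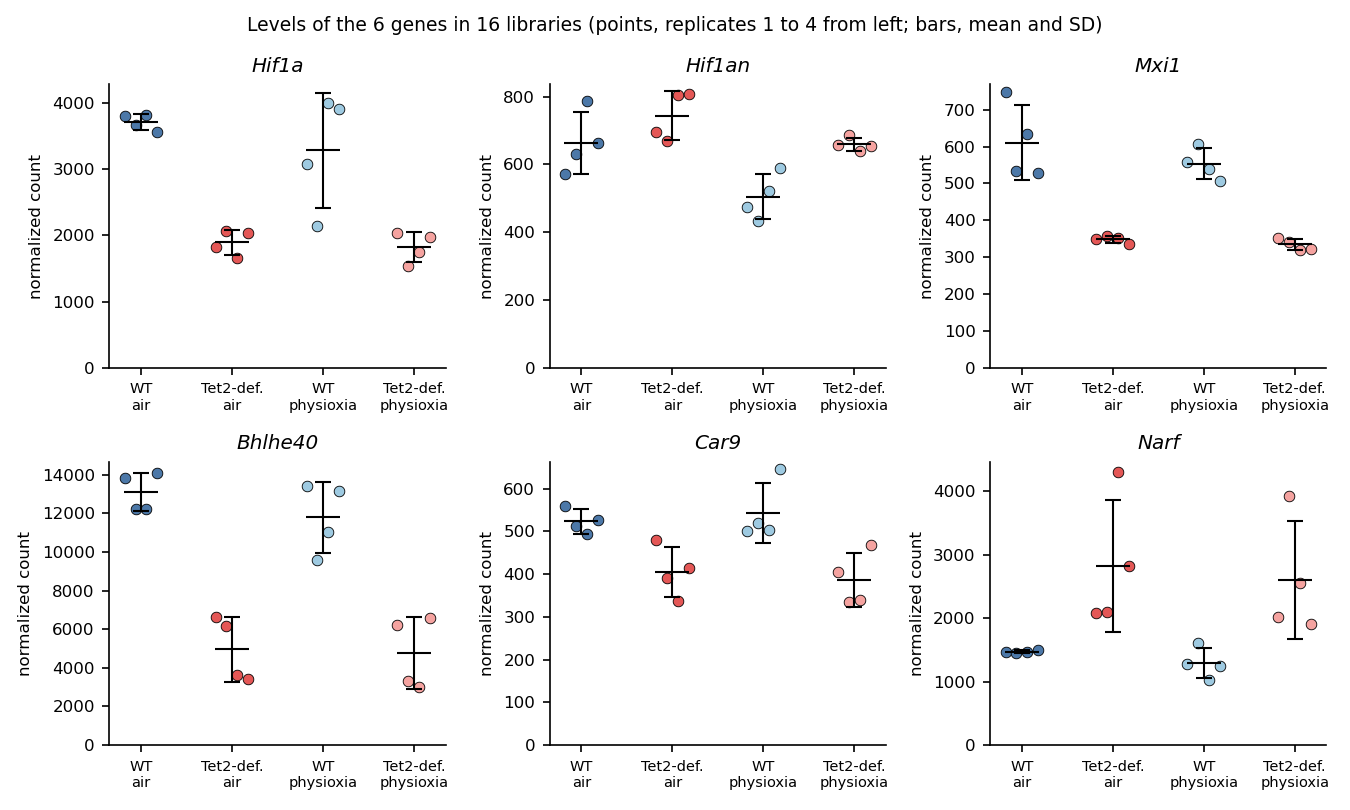
Normalized counts of the 6 genes in each library (points, replicates 1 to 4 from left to right) by group, with the group mean and SD as bars; each vertical axis starts at 0. Hif1a, Mxi1, Bhlhe40 and Car9 sit lower and Narf higher in both Tet2-deficient groups, and the Narf libraries of those groups spread from 1903 to 4300.

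Hif1an was higher in Tet2-deficient cells in physioxia, against the direction of Hif1a and by less, and its oxygen difference in WT was the largest of the 6 in size but was not called. FIH hydroxylates an asparagine of HIF-1α and also residues in ankyrin repeat proteins. Its gene (ENSMUSG00000036450) lies at GRCm38 chr19:44562850-44576274 on the + strand. In WT air the libraries held 572, 632, 786 and 663 normalized counts, and in Tet2-deficient air 696, 669, 806 and 808. These 2 groups overlapped, and the difference of 0.17 ± 0.12 was not called (limma adjusted p = 0.201). In physioxia the WT libraries held 474, 434, 521 and 590, against 658, 687, 640 and 653 in Tet2-deficient cells. Here every Tet2-deficient library exceeded every WT one, by a log2 difference of 0.39 ± 0.12 (limma adjusted p = 0.0114). The gap came with a lower WT level, 505 ± 66.7 in physioxia against 663 ± 90.3 in air, while the Tet2-deficient means were 660 ± 19.8 and 745 ± 72.4.

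The oxygen difference of Hif1an in WT was −0.39 ± 0.12, with an unadjusted p of 0.00606 in limma and an adjusted p = 0.0791, so it was not called. In an exact two-sided permutation test over the 8 WT libraries p was 0.0571, where 0.0286 is the smallest 4 against 4 can give. That test does not use the pairing of the WT libraries by replicate number. Hif1an was lower in physioxia in 4 of 4 WT pairs, with an exact two-sided sign-flip permutation p of 0.125, the smallest 4 pairs can give, in a test chosen after seeing the data. Bhlhe40 was also lower in 4 of 4 pairs (exact p = 0.125), Mxi1 and Narf in 3, Hif1a in 2 and Car9 in 1. The 2 WT groups overlapped only through WT air replicate 1 at 572 and WT physioxia replicate 4 at 590. The call appeared after quantile normalization (−0.47, adjusted p = 0.0284), in DESeq2 on the recovered reads (−0.46, adjusted p = 0.00797) and in limma without WT physioxia replicate 4 (−0.47, adjusted p = 0.0323). With the WT replicate numbers as a block, in the WT libraries alone, the adjusted p was 0.18 by limma. In Tet2-deficient cells the oxygen difference was −0.17 ± 0.12 (limma adjusted p = 1), and the interaction was 0.22 ± 0.18 (limma adjusted p = 0.679, 95% interval −0.15 to 0.60).

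Hif1an was the sole 1 of the 10 listed HIF hydroxylases and degradation genes in the table, so the prolyl hydroxylases and Vhl are not analysed here. Of 11 listed ankyrin repeat proteins that FIH can hydroxylate, 4 were in the table. Nfkbia, the inhibitor IκBα of NF-κB, was lower in Tet2-deficient cells (−0.96 ± 0.16 in air and −1.12 ± 0.16 in physioxia, limma adjusted p = 0.000163 and adjusted p = 4.58e-05). Nfkb1 was lower in air (−0.21 ± 0.09, limma adjusted p = 0.0402) and not called in physioxia (−0.10 ± 0.09, limma adjusted p = 0.33). Ppp1r12a, a myosin phosphatase subunit, was called in neither (−0.30 ± 0.14, limma adjusted p = 0.0565, and 0.13 ± 0.14, limma adjusted p = 0.404). Ank1, the erythrocyte ankyrin and itself one of the erythroid markers, was higher (2.38 ± 0.45 in air and 2.61 ± 0.45 in physioxia, limma adjusted p = 0.000457 and adjusted p = 0.000229).

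**Figure D2:**
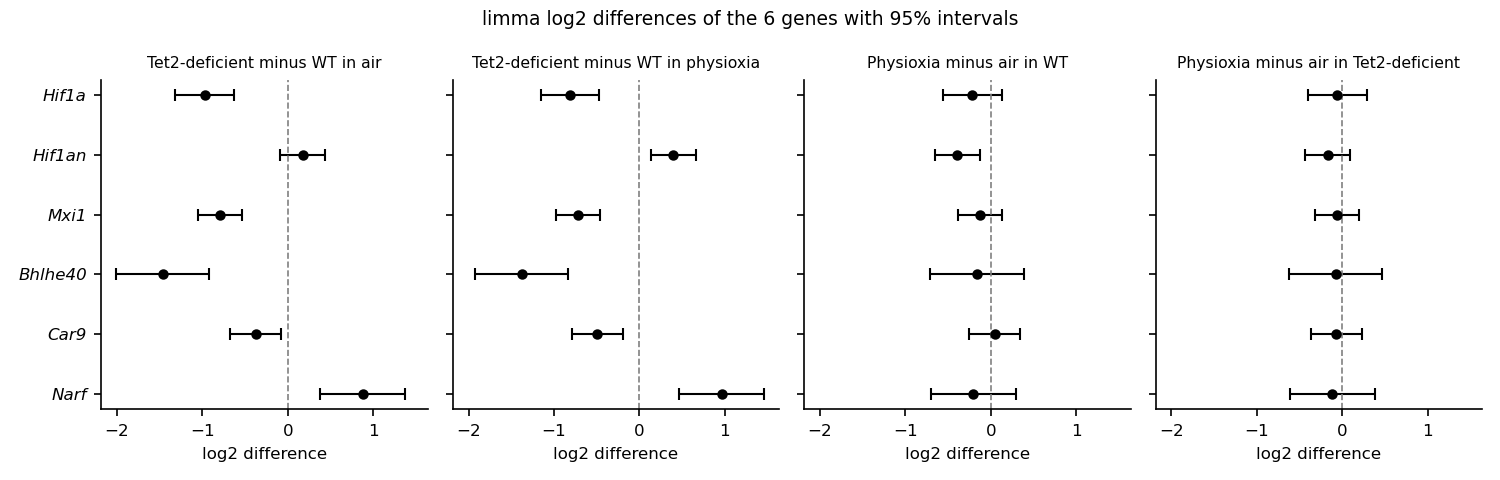
Log2 differences from limma (points) with 95% intervals (bars) of the 6 genes in 4 comparisons, on 1 horizontal scale. The genotype differences run from −1.46 to 0.96, whereas the oxygen differences of all 6 genes lie between −0.39 and 0.05.

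The HIF-responsive members split, 3 lower and 1 higher. Mxi1 (ENSMUSG00000025025, chr19:53310518-53375810, + strand) encodes a MAX-binding repressor that opposes MYC. Its WT air libraries held 747, 534, 634 and 528 normalized counts, and the Tet2-deficient ones 349, 358, 353 and 335. In physioxia they held 558, 608, 540 and 508 in WT against 352, 341, 321 and 323 in Tet2-deficient cells. The Tet2-deficient libraries were tightly grouped, with an SD of 9.75 in air and 14.9 in physioxia, and no library overlapped with WT. The log2 differences were −0.79 ± 0.12 and −0.72 ± 0.12 (limma adjusted p = 8.0e-05 and adjusted p = 0.000174), which is 0.571 and 0.604 times the WT level.

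In the MYC and MAX network, 6 of 13 listed genes were in the table, of which 3 were called higher and 2 lower in each oxygen condition. With 79.5% of all genes tested called in air and 69.4% in physioxia, counts this high among 6 genes do not set the list apart. Mxd1, another MAX-binding repressor, was lower beside Mxi1 (−1.36 ± 0.17 in air and −1.24 ± 0.17 in physioxia, limma adjusted p = 1.56e-05 and adjusted p = 3.68e-05). Myc itself was higher, with 8809 ± 641 normalized counts in WT air against 15129 ± 401 in Tet2-deficient air (0.78 ± 0.11, limma adjusted p = 4.64e-05). Mycn was higher by 1.10 ± 0.19 in air (limma adjusted p = 0.000278) and by 1.02 ± 0.19 in physioxia (limma adjusted p = 0.000492). Mxd3 went the other way from Mxi1 and Mxd1, at 1.11 ± 0.33 in air (limma adjusted p = 0.00834), and was not called in physioxia (0.64 ± 0.33, limma adjusted p = 0.0949).

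Bhlhe40 was the most highly expressed member per length and had the widest genotype difference of the 6. The gene (ENSMUSG00000030103, chr6:108660629-108666925, + strand) encodes DEC1, a basic helix-loop-helix repressor of the circadian clock that also shapes immune cell gene expression. In WT air the libraries held 13830, 12250, 12245 and 14117 normalized counts, and in Tet2-deficient air 6625, 6157, 3610 and 3434. The lowest WT library stood far above the highest Tet2-deficient one, and the Tet2-deficient libraries fell into a higher pair (replicates 1 and 2) and a lower pair. A higher and a lower pair were also seen in physioxia, where WT libraries held 13401, 9565, 11057 and 13148 and Tet2-deficient ones 6217, 3338, 2994 and 6566. Each collection was divided between the oxygen conditions, so the 2 lower pairs may come from the same collections. Over all genes tested, with group means subtracted, Tet2-deficient air replicates 3 and 4 correlated best with physioxia replicates 2 and 3. Air replicates 1 and 2 both correlated best with physioxia replicate 1. The log2 differences were −1.46 ± 0.26 and −1.38 ± 0.26 (limma adjusted p = 0.000264 and adjusted p = 0.000429). Without Tet2-deficient air replicates 3 and 4, the lower pair, the air value was −1.03 (limma adjusted p = 0.00829).

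Among clock genes 10 of 16 were in the table. The call was higher for 4 and lower for 5 in air, and higher for 2 and lower for 2 in physioxia. Beside this, 79.5% of all genes tested were called in air and 69.4% in physioxia. The share of clock genes called was larger than that in air and smaller in physioxia. Nfil3, a repressor that competes with the PAR bZIP activators, was lower (−0.98 ± 0.29 in air and −1.87 ± 0.29 in physioxia, limma adjusted p = 0.00829 and adjusted p = 9.64e-05). Tef and Hlf, which belong to those activators, were higher in both conditions. Tef differed by 0.40 ± 0.18 in air and 0.52 ± 0.18 in physioxia (limma adjusted p = 0.0474 and adjusted p = 0.0162). Hlf, which is also a stem cell gene, differed by 0.69 ± 0.17 in air and 0.64 ± 0.17 in physioxia (limma adjusted p = 0.0032 and adjusted p = 0.00491). Dbp, another of them, was higher in air (0.73 ± 0.27, limma adjusted p = 0.0247) and not called in physioxia (0.16 ± 0.27, limma adjusted p = 0.609). Bhlhe41, the paralog of Bhlhe40 (DEC2), was lower in air (−1.39 ± 0.55, limma adjusted p = 0.0325) and not called in physioxia (−0.99 ± 0.55, limma adjusted p = 0.12), at 49.4 ± 17 normalized counts or fewer. Per1 was lower in air (−0.64 ± 0.24, limma adjusted p = 0.0243) and not called in physioxia (−0.40 ± 0.24, limma adjusted p = 0.139).

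Car9 had the smallest called genotype difference in air. The gene (ENSMUSG00000028463, chr4:43506966-43513729, + strand) encodes carbonic anhydrase IX, a cell surface enzyme that helps cells handle acid and is widely used as a marker of hypoxia. WT air libraries held 560, 513, 493 and 526 normalized counts and Tet2-deficient air libraries 480, 390, 337 and 414. In physioxia the WT libraries held 500, 519, 504 and 647, and the Tet2-deficient ones 405, 335, 340 and 468. The groups did not overlap in either condition, but they came close, with 493 against 480 at the nearest in air and 500 against 468 in physioxia. The log2 differences were −0.38 ± 0.14 (limma adjusted p = 0.0252) and −0.49 ± 0.14 (limma adjusted p = 0.00709). The call in air was lost without WT air replicate 1 (−0.34, limma adjusted p = 0.0616), without Tet2-deficient air replicate 3 (−0.29, limma adjusted p = 0.0835), without Tet2-deficient air replicates 3 and 4 (−0.27, limma adjusted p = 0.18) and without WT air replicates 1 and 2 (−0.34, limma adjusted p = 0.119). Car9 shares 214 of its exonic bases, 9.29%, with the antisense gene Gm12454, and Mxi1 (2.84%, with Gm10197) and Bhlhe40 (2.51%, with 0610040F04Rik) share fewer with genes on the other strand.

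The other 4 carbonic anhydrase genes in the table, of 16 listed, were higher in Tet2-deficient cells in both conditions while Car9 was lower. Car2, the main red cell enzyme beside Car1, stood at 24511 ± 4245 in WT air against 93725 ± 35445 in Tet2-deficient air (1.89 ± 0.27, limma adjusted p = 4.0e-05). Car1 differed by 2.25 ± 0.34 in air and 1.75 ± 0.34 in physioxia (limma adjusted p = 7.36e-05 and adjusted p = 0.000589). Both are on the erythroid marker list. Car12, a surface enzyme like Car9 and also induced by HIF in other cells, was higher by 1.46 ± 0.31 and 1.74 ± 0.31 (limma adjusted p = 0.00126 and adjusted p = 0.000328), from 64.9 ± 14.8 in WT air.

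Narf was higher in Tet2-deficient cells in both conditions, and its libraries spread widely within the Tet2-deficient groups. The gene (ENSMUSG00000000056, chr11:121237253-121255856, + strand) was named for the binding of its product to the carboxyl end of prelamin A. In WT air the libraries were close together, at 1458, 1457, 1466 and 1503 normalized counts, whereas those of Tet2-deficient air held 2084, 2100, 4300 and 2818. In physioxia WT libraries held 1278, 1611, 1030 and 1245 and Tet2-deficient ones 2011, 3921, 2547 and 1903. All 8 Tet2-deficient libraries exceeded all 8 WT ones, and 1 Tet2-deficient library in each oxygen condition, replicate 3 in air and replicate 2 in physioxia, stood far above the others. As each collection was divided between the oxygen conditions, these 2 libraries may come from the same collection and are not shown to be independent. The log2 differences were 0.87 ± 0.23 (limma adjusted p = 0.00485) and 0.96 ± 0.23 (limma adjusted p = 0.00271). Without Tet2-deficient air replicates 3 and 4 the air difference was 0.51 and was not called (limma adjusted p = 0.0824).

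The 2 libraries with the most Narf were also those with the highest erythroid marker sum, 355279 in Tet2-deficient air replicate 3 and 320345 in Tet2-deficient physioxia replicate 2. The other 6 Tet2-deficient libraries had sums of 115732 to 178001. WT physioxia replicate 2, which had the most Narf of the WT libraries at 1611, also had their highest sum, 75729. On the log2 scale, Pearson's r between Narf and the sum was 0.946 over the 16 libraries and 0.941 after group means were subtracted. Such values describe libraries that share their groups and may share collections between the oxygen conditions. For Bhlhe40 the values were −0.947 and −0.738, for Car9 −0.869 and −0.618, and for Hif1a −0.925 and −0.613. Those of Mxi1 (−0.863 and −0.0758) and Hif1an (0.50 and 0.204) were small once group means were subtracted. With the monocyte and macrophage sum, Mxi1 had r of 0.936 and 0.534 and Hif1an −0.686 and −0.808. With the LSK and stem cell marker sum the sign turned once group means were subtracted for Hif1a (−0.596 and 0.779), Bhlhe40 (−0.64 and 0.601), Car9 (−0.605 and 0.396) and Narf (0.558 and −0.713). It did not for Mxi1 (−0.834 and −0.296) or Hif1an (0.694 and 0.267). How far the erythroid or other markers account for these genotype differences was not tested.

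**Figure D3:**
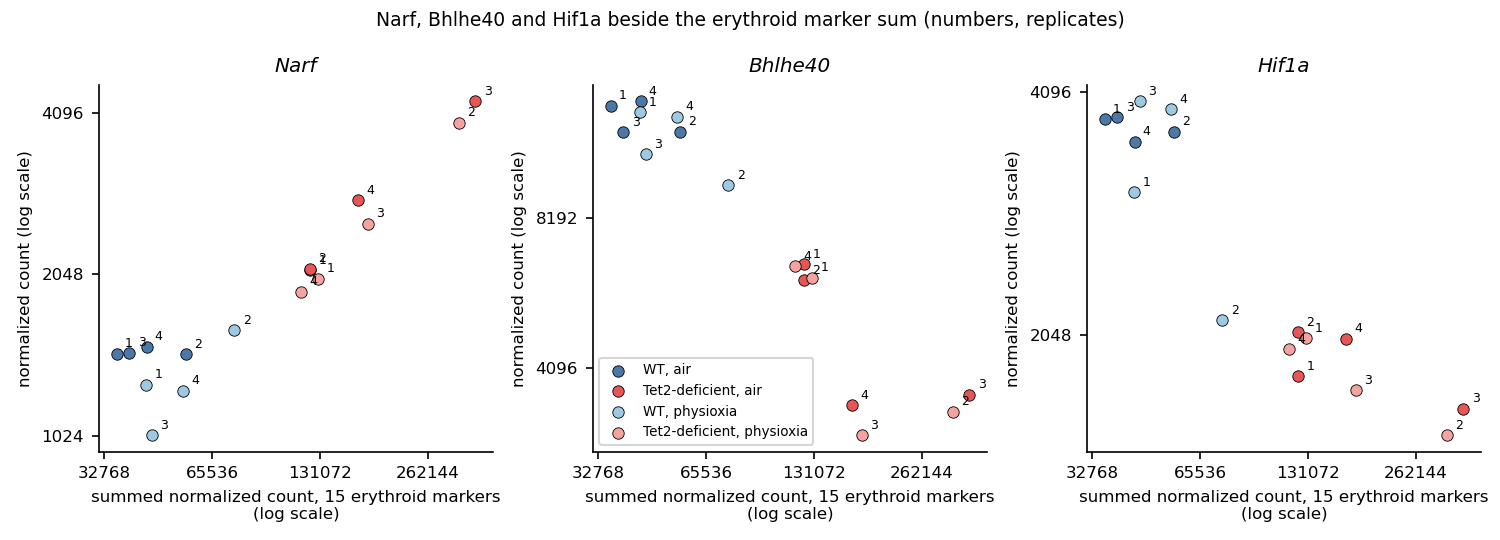
Normalized counts of Narf, Bhlhe40 and Hif1a (vertical, log scale) against the summed normalized count of 15 erythroid markers (horizontal, log scale) in 16 libraries, colored by group and numbered by replicate. Narf lies at 1030 to 1611 in the WT libraries, whose sums are 35550 to 75729, and at 1903 to 4300 in the Tet2-deficient ones, whose sums are 115732 to 355279, and Bhlhe40 and Hif1a are lower in the Tet2-deficient libraries.

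Of 11 listed genes of prelamin A processing and the lamins, 5 were in the table. Fnta, a farnesyltransferase subunit that takes part in prelamin A lipidation, was higher in Tet2-deficient cells (1.55 ± 0.33 in air and 1.02 ± 0.33 in physioxia, limma adjusted p = 0.00103 and adjusted p = 0.0118). Rce1, a protease of the same route, was lower in physioxia (−0.39 ± 0.11, limma adjusted p = 0.00613) and not called in air (−0.21 ± 0.11, limma adjusted p = 0.0893). Lmnb2, a B-type lamin, was not called in either (−0.37 ± 0.18 and −0.08 ± 0.18).

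By limma over all 16 libraries, no member was called for oxygen in either genotype, and Hif1an in WT was called under the other settings given above. In WT, 5.76% of genes were called between physioxia and air (352 of 6110), and the members' differences ran from −0.39 for Hif1an to 0.05 for Car9 (limma adjusted p from 0.0791 to 0.902). With the WT replicate numbers as a block, 268 genes were called in the WT libraries alone. In Tet2-deficient cells 0% of genes were called by limma, 280 had an unadjusted p under 0.05, and edgeR called 0 and DESeq2 8. There the members ran from −0.17 for Hif1an to −0.06 for Hif1a and Mxi1, all with a limma adjusted p of 1. The 95% interval for Hif1a was −0.56 to 0.12 in WT and −0.40 to 0.29 in Tet2-deficient cells, which allows 0.677 to 1.09 times and 0.757 to 1.22 times the air level. For Car9 the interval was −0.26 to 0.35 in WT and −0.37 to 0.23 in Tet2-deficient cells, and for Bhlhe40 in WT it was wider, −0.71 to 0.38. No member's genotype difference was shown to depend on oxygen: 0% of genes passed the interaction by limma (546 with an unadjusted p under 0.05, 0 by edgeR and 12 by DESeq2), and the members' interactions ran from −0.11 for Car9 to 0.22 for Hif1an. Averaged over both oxygen conditions, 89.2% of genes were called between genotypes, among them all 6 members. That fit took the 16 libraries as independent, although each collection was divided between air and physioxia, so its p-values may be too small. Averaged over both genotypes, 3.93% of genes were called for oxygen by limma, and none of the members. In that average Hif1an was called by DESeq2 (−0.33, adjusted p = 0.00974), by limma after quantile normalization (−0.34, adjusted p = 0.0282) and by limma without WT physioxia replicate 4 (−0.32, adjusted p = 0.0463).

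The wider list of HIF-responsive regulators held 39 genes, of which 18 were in the table, Mxi1, Bhlhe40, Car9 and Narf among them. In air 7 were called higher and 10 lower in Tet2-deficient cells, and in physioxia 4 higher and 6 lower, with a median log2 difference of −0.34 and −0.32 beside the 0.24 and 0.06 of all genes tested. Of all genes tested 79.5% were called in air and 69.4% in physioxia. The share of the list called was over that of all genes in air and under it in physioxia (10 of 18). By limma, none of the 18 was called for oxygen in either genotype. Cxcr4, the receptor that holds stem cells in the marrow, was lower, with 272 ± 99.2 normalized counts in WT air against 104 ± 30 in Tet2-deficient air (−1.36 ± 0.28, limma adjusted p = 0.000959). Hmox1, haem oxygenase, was lower by 0.84 ± 0.30 in air and 1.35 ± 0.30 in physioxia on the log2 scale (limma adjusted p = 0.0193 and adjusted p = 0.0014). Tfrc, the transferrin receptor and an erythroid marker, was higher by 1.55 ± 0.38 and 1.45 ± 0.38 (limma adjusted p = 0.00265 and adjusted p = 0.00385). Plod1, a collagen hydroxylase, was not called in any of the 4 pairwise comparisons.

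Genes of glucose uptake and glycolysis, which HIF-1 induces in many cells, were called in both directions between genotypes. The table held 12 of 22, of which 4 were called higher and 6 lower in air and 5 higher and 7 lower in physioxia, with medians of −0.30 and −0.33. Over all genes tested 42.1% were called higher and 37.4% lower in air, and 35.9% and 33.6% in physioxia. Pfkp, an isoform of phosphofructokinase, was lower (−1.21 ± 0.16 and −0.87 ± 0.16, limma adjusted p = 1.99e-05 and adjusted p = 0.000338), while Pfkm, another isoform, was higher (1.07 ± 0.20 and 1.23 ± 0.20, limma adjusted p = 0.00036 and adjusted p = 0.000119). Gapdh was lower by 0.69 ± 0.10 in air and 0.80 ± 0.10 in physioxia on the log2 scale (limma adjusted p = 7.19e-05 and adjusted p = 1.94e-05). Gpi1 was lower (−0.38 ± 0.11 and −0.27 ± 0.11, limma adjusted p = 0.00849 and adjusted p = 0.0438). Pdk1, the kinase that holds back pyruvate dehydrogenase, was higher (0.61 ± 0.13 and 0.47 ± 0.13, limma adjusted p = 0.00088 and adjusted p = 0.00489). By limma, none of the 12 was called for oxygen.

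**Figure D4:**
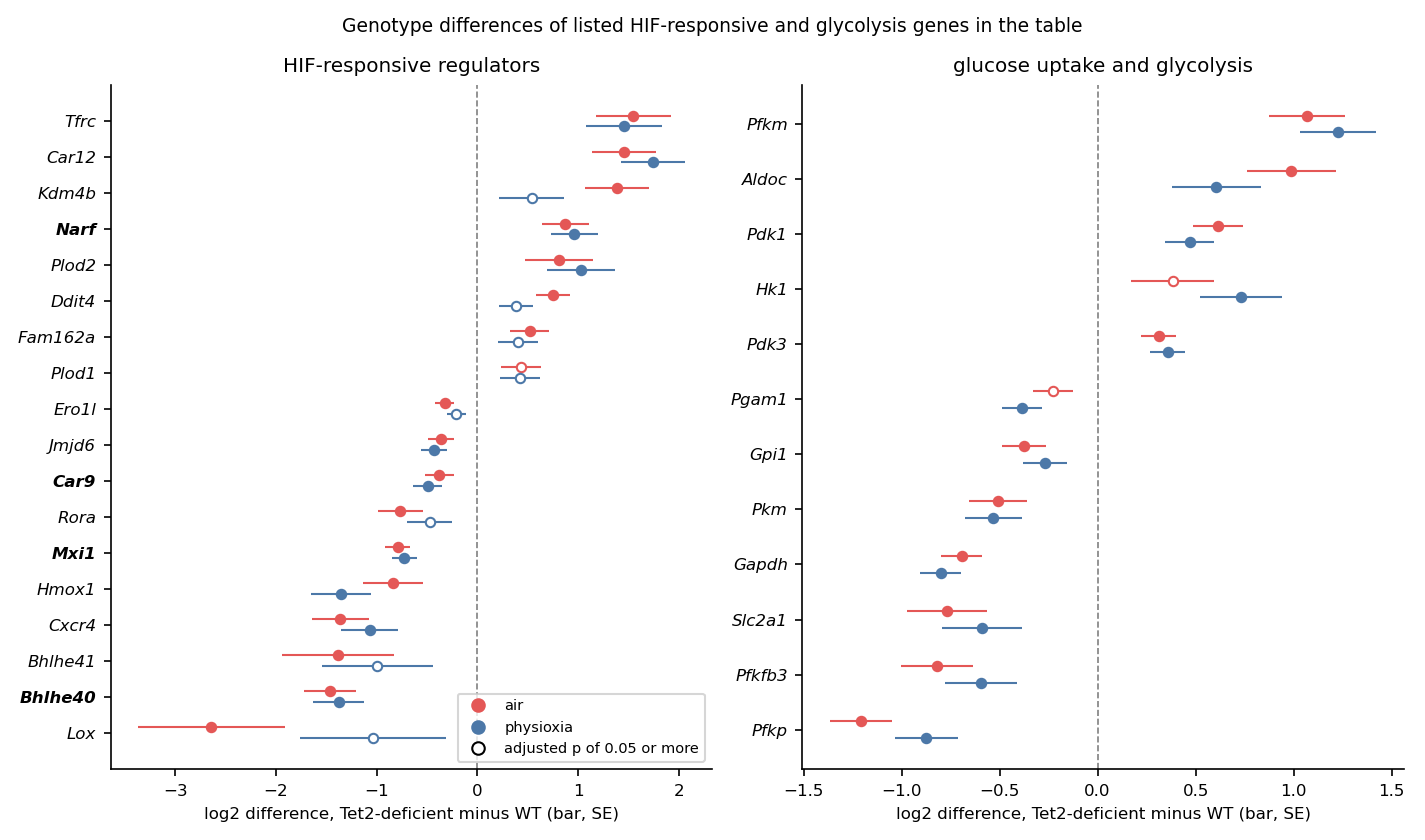
Log2 differences, Tet2-deficient minus WT, of the 18 HIF-responsive regulators and 12 glycolysis genes in the table (points, air and physioxia; bars, SE; open points, limma adjusted p of 0.05 or more), ordered by the air value, with members in bold. Both lists hold genes on either side of 0, with Bhlhe40, Mxi1 and Car9 on the lower side and Narf on the higher.

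Per kilobase of exon, the order of the members changed between genotypes. In WT air it was Bhlhe40 (2787 ± 213 normalized counts per kilobase), Hif1a (629 ± 20.6), Narf (306 ± 4.51), Car9 (227 ± 12.2), Hif1an (100 ± 13.7) and Mxi1 (89.5 ± 15.1), the last pair within its spread. In Tet2-deficient air Narf (588 ± 217) came before Hif1a (321 ± 32.2), and both followed Bhlhe40 (1053 ± 355). Physioxia gave Hif1a 556 ± 147 and Narf 269 ± 50 in WT against Hif1a 309 ± 37.9 and Narf 540 ± 193 in Tet2-deficient cells. With the longest transcript as the length, the order of Hif1an and Mxi1 in WT air turned and all other places stayed.

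**Figure D5:**
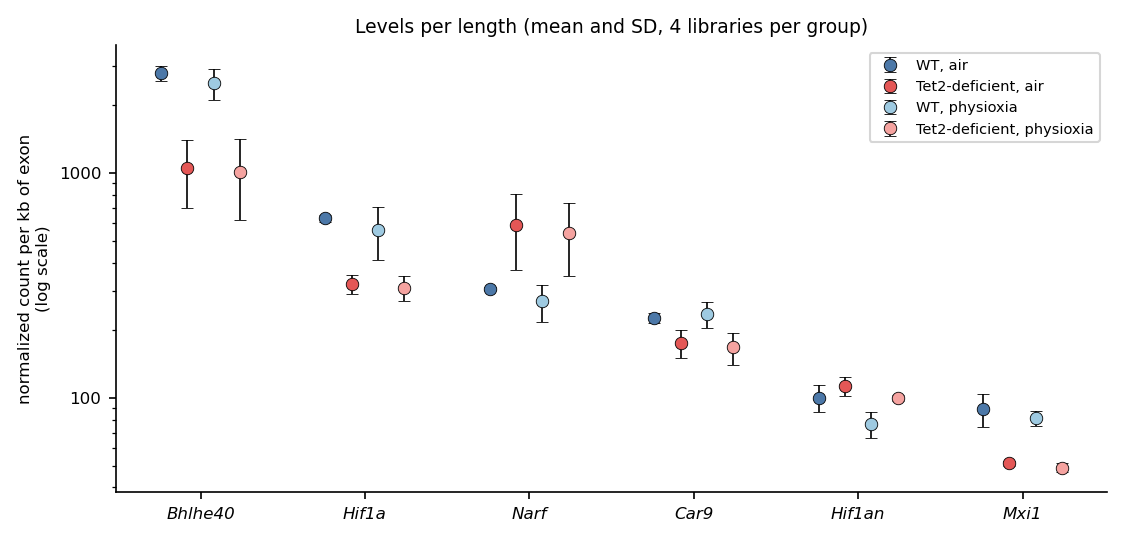
Normalized count per kilobase of exon (log scale, mean and SD of 4 libraries) for the 6 genes in each group. Bhlhe40 is highest throughout, and Narf lies under Hif1a in both WT groups and over it in both Tet2-deficient groups.

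The genes whose log2 levels followed each member most closely over the 16 libraries were found by Pearson's r, with the r after subtracting group means given second. For Hif1a they were Il16 (0.987 and 0.944), S1pr2 (0.983 and 0.902) and Selenon (0.978 and 0.891). For Bhlhe40 they were Sde2, Rel and Etnk2, each at 0.972, with 0.878, 0.905 and 0.882 within groups. Narf was closest to Fech, which encodes ferrochelatase, the last enzyme of haem synthesis (0.979 and 0.937), then to Cd82 (0.977 and 0.971) and Rrm2, a ribonucleotide reductase subunit (0.975 and 0.951). Car9 was closest to Pdgfb (0.928 and 0.822) and to the glycolytic gene Pkm (0.909 and 0.743), and Hif1an to Shkbp1 (0.938 and 0.839). Mxi1 was closest to Upk1b (0.974 and 0.777), the monocyte marker Ly86 (0.962 and 0.625) and Slc2a6 (0.960 and 0.426). Of these, r fell most for Slc2a6 once group means were subtracted. Among the members themselves, Bhlhe40 and Narf had r of −0.901 over all libraries and −0.749 within groups, and Bhlhe40 and Car9 0.901 and 0.709. These are descriptions over libraries that share 4 groups and 2 genotypes.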

How the data were processed

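Gene expression was measured in 16 libraries of CD45+ LSK-enriched marrow cells, 4 in each of 4 groups taken from the labels. The deposited signal is the authors' DESeq2-normalized read count, as the file's name and the values show: each is a read number over its library's size factor (100% gave whole reads within 0.01). The submitters' processing notes list FastQC and cutadapt, STAR and HTSeq, DESeq2, and the build GRCm38, without versions. Identifiers were matched to GENCODE M21 (6278 of 6288 genes). How the table's genes were chosen is not stated.

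The filter kept the 6110 genes that reached a value of 10 in 4 or more libraries and dropped 178. After addition of 1 and log2 transformation, limma 3.58.1 in R 4.3.3 modelled the 4 group means together, its variance prior following intensity, two-sided, with Benjamini-Hochberg adjustment over all genes tested and 0.05 as the threshold. The script was tested on simulated data. Single members were also tested by exact permutation. P-values set group differences against the spread between libraries, and whether a library was 1 mouse or a pool is not given. edgeR 4.0.16 and DESeq2 1.42.0 on the recovered reads, other scalings, filters and left-out libraries were alternatives. WT replicate numbers paired the samples (correlations of air and physioxia deviations 0.332, 0.178, 0.162 and 0.331), as the labels call the replicates matched. Tet2-deficient numbers did not (0.322, -0.275, 0.0423 and -0.00608).

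The members, lists and left-out libraries were chosen with earlier results of these data known. Named genes were the members, up to 4 genes per list with the smallest genotype p and 2 with the smallest oxygen p, and per member the 3 genes with the highest Pearson r, unnamed gene models and receptor segments left out. The text names a part of them, with Dbp added beside Tef and Hlf. Lists were HIF subunits, hydroxylases and degradation, coactivators, HIF-responsive regulators, glycolysis, MYC and MAX, clock, carbonic anhydrases, prelamin A and lamins, FIH substrates, and markers of LSK, erythroid, neutrophil, monocyte, basophil, T and NK, B and stromal cells. Neutrophil sums were 2161 to 13675 in WT and 597 to 1930 in Tet2-deficient libraries, and T and NK sums 27257 to 44398 and 18073 to 26224. The B cell (Vpreb1) and stromal (Col1a2) lists had 1 gene each in the table, at 162 or fewer.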

Additional observations from a re-analysis of the deposited data

Results flagged for a closer look

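In WT physioxia, replicate 4 stood apart from the other 3 libraries for Car9, at 647 normalized counts against 500 to 519. Among 24 sets of 4 libraries (6 genes in 4 groups), this was the sole one in which the gap at one end, as a share of the range, exceeded Dixon's 95% critical value. Chance gives about 1 such set in 20.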

How the results depend on the processing

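Over 30 other settings, 990 refitted member differences gave 0 reversed calls, 12 lost calls and 6 gained calls, and the sign changed 33 times among differences not called in either fit. Hif1a, Mxi1 and Bhlhe40 kept their genotype calls in all of them. Quantile normalization moved the median of all genes in air from 0.243 to 0.121. Each group had 4 libraries, and the lowest read number of a member was 236.

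Libraries 3 and 4 of Tet2-deficient air had the highest erythroid marker sums of their group. Leaving them out gave 2760 genes called in air in place of 4858 and 3 members in place of 5. Narf was then 0.51 and Car9 -0.27, both without a call. The same omission gave 152 genes for oxygen in Tet2-deficient cells in place of 0, and 441 in place of 240 for oxygen averaged over genotypes. Without WT air libraries 1 and 2, Car9 in air was -0.34 and not called, oxygen gave 0 genes in WT in place of 352, and the oxygen average gave 9. With all annotated genes in the adjustment the counts were 2434 in air, 2477 in physioxia in place of 4243, 0 for oxygen in WT and 6 for the oxygen average, and Car9 (-0.38 and -0.49) and Hif1an in physioxia (0.39) lost their calls. On the recovered reads edgeR called 4952 genes in air, 4284 in physioxia and 334 for oxygen in WT. DESeq2 gave 550 genes for oxygen in WT, 8 in Tet2-deficient cells and 12 for the interaction, and a pseudocount of 5 gave 1 for oxygen in Tet2-deficient cells. Hif1an was then the 1 member called for oxygen in WT by DESeq2 (-0.46) and after quantile normalization (-0.47), and 1 member, Hif1an again, in the oxygen average. Averaged over oxygen, the genotype call of Hif1an was lost after quantile normalization (0.16), without either pair of air libraries (0.22 in both) and with all annotated genes (0.28). The cause was not tested.

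Leaving out 1 library at a time gave 128 to 554 genes for oxygen in WT, 0 to 1 in Tet2-deficient cells, 0 to 1 for the interaction and 139 to 359 for the oxygen average. Members called for oxygen numbered 0 to 1 in WT and 0 to 1 in the average. Car9 in air ranged from -0.46 to -0.29, and Hif1an for oxygen in WT from -0.47 to -0.31. The WT count moved by over 1.5 times without WT air replicate 2 or 4 or any 1 of the 4 WT physioxia libraries, and the average without WT air replicate 4, Tet2-deficient air replicate 1, WT physioxia replicate 1 or Tet2-deficient physioxia replicate 1, 3 or 4.

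With the replicate block over all libraries 462 genes were called for oxygen in WT, and with the WT libraries alone, an alternative chosen after seeing the data, 268. For oxygen the block was genotype and replicate number together, and it changed no call of a member and no count by over 1.5 times. For genotype it was the replicate number alone, which did not pair WT with Tet2-deficient libraries (same-number correlations from -0.118 to 0.0443 in air). The genotype calls of members did not change under it, but such a block cannot test them. For oxygen in Tet2-deficient cells, whose numbers did not pair, the block gave 0 genes. Each WT air library correlated best with the WT physioxia library of its own number.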
